A study of Caenorhabditis elegans with 2 samples.

Results

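The genes of the LIN-12/Notch pathway described here were examined in chromatin immunoprecipitation followed by sequencing (ChIP-seq) for ZTF-11 in the nematode Caenorhabditis elegans: the ligand genes lag-2 and apx-1, the receptor genes lin-12 and glp-1, the protease genes sup-17 and sel-12, the transcription factor gene lag-1 and the target gene ref-1. They are 8 of 19973 protein-coding genes on the nuclear chromosomes of the Ensembl annotation of WBcel235, the ce11 sequence, and were taken by name. The genes and their windows were chosen with earlier results of these data known. For each gene the peaks were collected whose summit lay in the gene body or within 5000 bp upstream of its 5′ end, a stretch called its window here. Every animal came from strain OP236, which per the labels carries the transgene wgIs236 together with unc-119(ed3), a mutation on chromosome III, and expresses ZTF-11 fused to eGFP, an enhanced green fluorescent protein. The animals were third-stage (L3) larvae of mixed sex, taken whole, with age unknown per the labels. The single group had 2 biological replicates and no other strain or stage to set against it. The antibody is named only by its target, ztf-11, in the labels. They do not say which promoter drives the fusion or in which cells it is made. In whole animals, strong binding in a few cells and weak binding in many cannot be told apart.

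Notch signalling passes between touching cells. A ligand on one cell binds the receptor on its neighbour, an ADAM protease and then gamma-secretase cut the receptor, and its intracellular part enters the nucleus and turns on targets together with a CSL-type DNA-binding protein, which in C. elegans is LAG-1. In larvae LIN-12 takes part in vulval and gonadal cell fate choices, and GLP-1 keeps germline stem cells dividing. ZTF-11 is a zinc finger protein of the Myt1 family. In mouse, factors of this family are known to repress the Notch target Hes1 in cells that become neurons, so where ZTF-11 peaks lie at Notch genes is a natural question for these lists.

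Replicate 1 listed 30000 peaks on ce11 and replicate 2 listed 2036, of which 2007 were nuclear. The relaxed list from both replicates pooled held 631 peaks. It is labelled as peaks and background, so an entry in it need not be a bound site. The thresholded list, derived from the other lists by the irreproducible discovery rate, held 96. Read depth is unknown for both libraries, since only peak lists were used. In the windows of these genes, -log10 q-values were as low as 0.131 (replicate 1, rank 29151) and 0.0593 (replicate 2, rank 941). A low value means a high q-value, so a listed peak is not by itself set apart from background. Ranks below run from 1, the strongest peak of a list by the authors' signal score, whose scale no source used here states. Across the nuclear chromosomes replicate 1 had between 258 peaks per Mb, on IV, and 327 per Mb, on X. With this density, a replicate 1 peak in a window is the usual state of a gene, while a replicate 2 or pooled peak is not.

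The sequences at the summits that the results turn on are shown first, for the receptors, for lag-1 and for ref-1. Each is the 201 bp centred on a summit, read from the RefSeq sequence of WBcel235 (ce11) in the direction of the gene's transcription. In the replicate 1 peaks of lag-1 and ref-1, capitals mark the core word of Myt1-family sites, AAGTTT, and the LAG-1 (CSL) core words GTGGGAA and ATGGGAA, each on either strand. The receptor sequences hold none of these words and have no capitals. In the replicate 2 peak of lag-1, capitals mark the arms of an inverted repeat.
lin-12, replicate 1, rank 136, chrIII:9061804-9062004, minus strand: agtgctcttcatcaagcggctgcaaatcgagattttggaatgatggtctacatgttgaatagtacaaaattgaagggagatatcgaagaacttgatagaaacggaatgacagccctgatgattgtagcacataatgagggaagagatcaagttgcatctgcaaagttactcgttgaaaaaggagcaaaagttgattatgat
glp-1, replicate 1, rank 217, chrIII:9095880-9096080, plus strand: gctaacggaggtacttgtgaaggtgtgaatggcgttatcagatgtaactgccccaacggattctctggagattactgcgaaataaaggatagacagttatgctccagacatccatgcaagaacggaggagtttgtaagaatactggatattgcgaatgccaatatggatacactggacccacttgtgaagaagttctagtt
lag-1, replicate 1, rank 817, chrIV:6097620-6097820, plus strand: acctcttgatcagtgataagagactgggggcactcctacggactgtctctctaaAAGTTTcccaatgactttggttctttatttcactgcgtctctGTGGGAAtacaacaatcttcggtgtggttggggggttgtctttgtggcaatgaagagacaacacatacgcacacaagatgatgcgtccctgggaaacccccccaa
lag-1, replicate 2, rank 941, chrIV:6095157-6095357, plus strand: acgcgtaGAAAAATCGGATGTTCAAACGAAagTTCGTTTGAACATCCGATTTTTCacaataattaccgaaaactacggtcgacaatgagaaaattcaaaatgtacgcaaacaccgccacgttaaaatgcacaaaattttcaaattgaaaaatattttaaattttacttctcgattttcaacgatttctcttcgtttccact
ref-1, replicate 1, rank 759, chrII:10214394-10214594, plus strand: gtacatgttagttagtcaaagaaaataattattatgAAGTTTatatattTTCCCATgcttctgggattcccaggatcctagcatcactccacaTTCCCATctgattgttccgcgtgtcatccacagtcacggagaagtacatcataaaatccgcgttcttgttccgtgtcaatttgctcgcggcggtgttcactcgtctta

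All 8 genes had a replicate 1 peak in the window, and together they held 33. Of all protein-coding genes 88.3% had one, so the presence of a replicate 1 peak says little about the Notch genes. Replicate 2 listed 1 peak in these windows, at lag-1, so that 1 of 8 genes had a replicate 2 peak against 14.9% of all protein-coding genes. That gene was also the 1 of 8 with a peak of both replicate lists in its window, against 14.1% of all protein-coding genes, although its replicate 1 and replicate 2 peaks did not overlap. The pooled list and the thresholded list held 0 peaks in the 8 windows, against 5.01% and 0.631% of protein-coding genes with a peak in these lists.

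The counts were set against the density of each list on the same chromosome. Over the 97066 bp of the 8 windows, the density of replicate 1 gives 28.4 peaks, so the 33 listed were 1.16 times the density, with an exact Poisson 95% interval from 0.799 to 1.63. In replicate 2 the density gives 1.97 peaks, and the single peak was 0.508 times that, with an interval from 0.0129 to 2.83. In the pooled list it gives 0.598 peaks against 0 listed, which allows up to 6.17 times the density. All 3 intervals include the chromosome density, and at these list lengths a shortage in replicate 2 or in the pooled list was not detectable. The intervals cover counting error only, not the spread between animals, and neighbouring peaks are not independent.

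**Figure D1:**
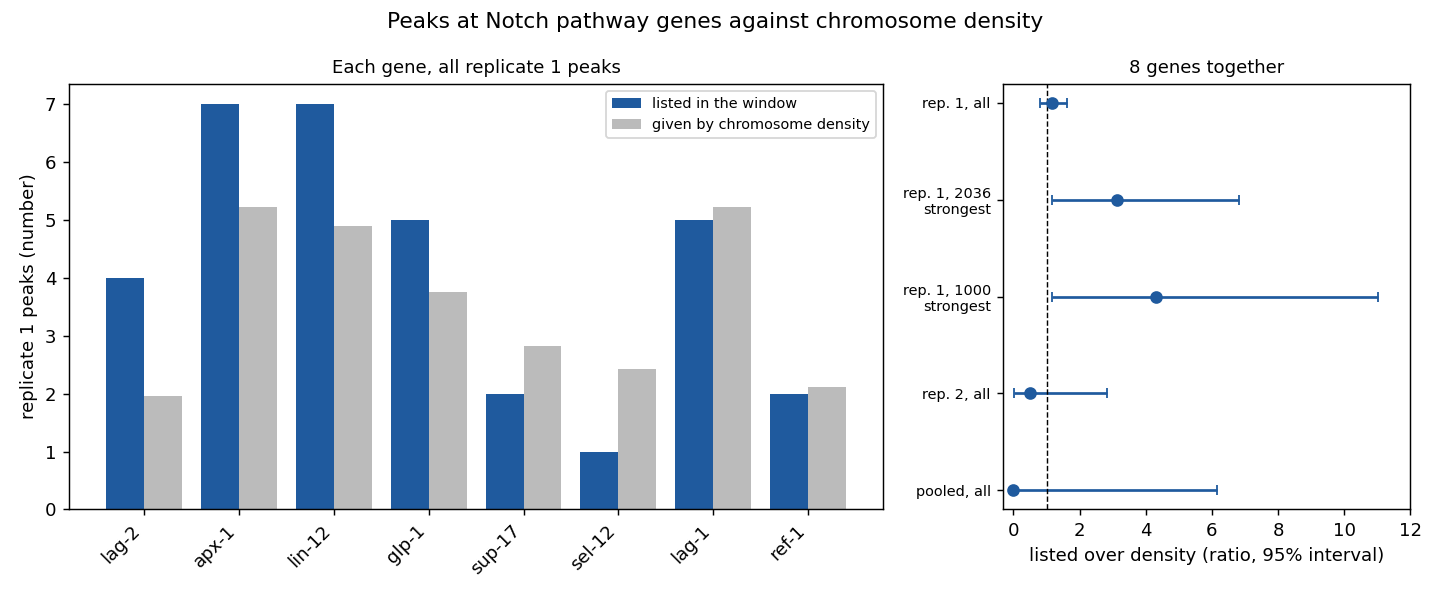
Left, the number of replicate 1 peaks in the window of each Notch gene beside the number given by the density of the list on the same chromosome. Right, the ratio of listed peaks to density for the 8 genes together, with exact Poisson 95% intervals and a dashed line at a ratio of 1. The ratio was 1.16 with all replicate 1 peaks, 3.14 with its 2036 strongest and 4.30 with its 1000 strongest, against 0.508 in replicate 2 and 0 in the pooled list. The cutoff at 1000 was chosen after seeing the data.

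The replicate 1 peaks at these genes were not evenly spread over the ranks of the list. Of the 33, 4 were among its 1000 strongest peaks, 1 each at lin-12, glp-1, lag-1 and ref-1, so 4 of 8 genes had such a peak against 7.58% of all protein-coding genes. The density of these strongest peaks gives 0.929 in the 8 windows, and 4 is 4.30 times that (exact Poisson 95% interval 1.17 to 11.02). The cutoff at 1000 was chosen after seeing the data, so this interval does not have its stated coverage. Among the 2036 strongest peaks of replicate 1, as many as replicate 2 lists, there were 6, which is 3.14 times the density (interval 1.15 to 6.82), with lag-2 and apx-1 added. The median rank of the 33 was 9961, against 15000.5 over the list. The windows of the 8 genes are longer than most, with a median of 10895 bp against 7027 bp over all protein-coding genes, and this adds to the share of genes with a strong peak but not to the ratios to density.

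None of these strong peaks was listed in replicate 2. Overlap with replicate 2 was found for 0 of the 33 peaks, against 2.39% of all replicate 1 peaks, and overlap with a pooled peak also for 0. Among the 1000 strongest replicate 1 peaks the share that overlapped replicate 2 was 10.3%, and none of the 4 at Notch genes did. The replicate 2 peak at lag-1 overlapped 0 replicate 1 peaks, against 33.7% of the nuclear replicate 2 peaks that overlapped one. No position at these genes was therefore found in both replicate lists. With so few peaks, these counts of 0 cannot be told apart from the shares over the lists. They are not a result about the Notch genes. Since a list holds only the entries its caller kept, a position that replicate 2 does not list is not shown to be unbound there. Likewise, a listed position is not shown to be bound, since the lists reach down to low -log10 q-values.

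**Figure D2:**
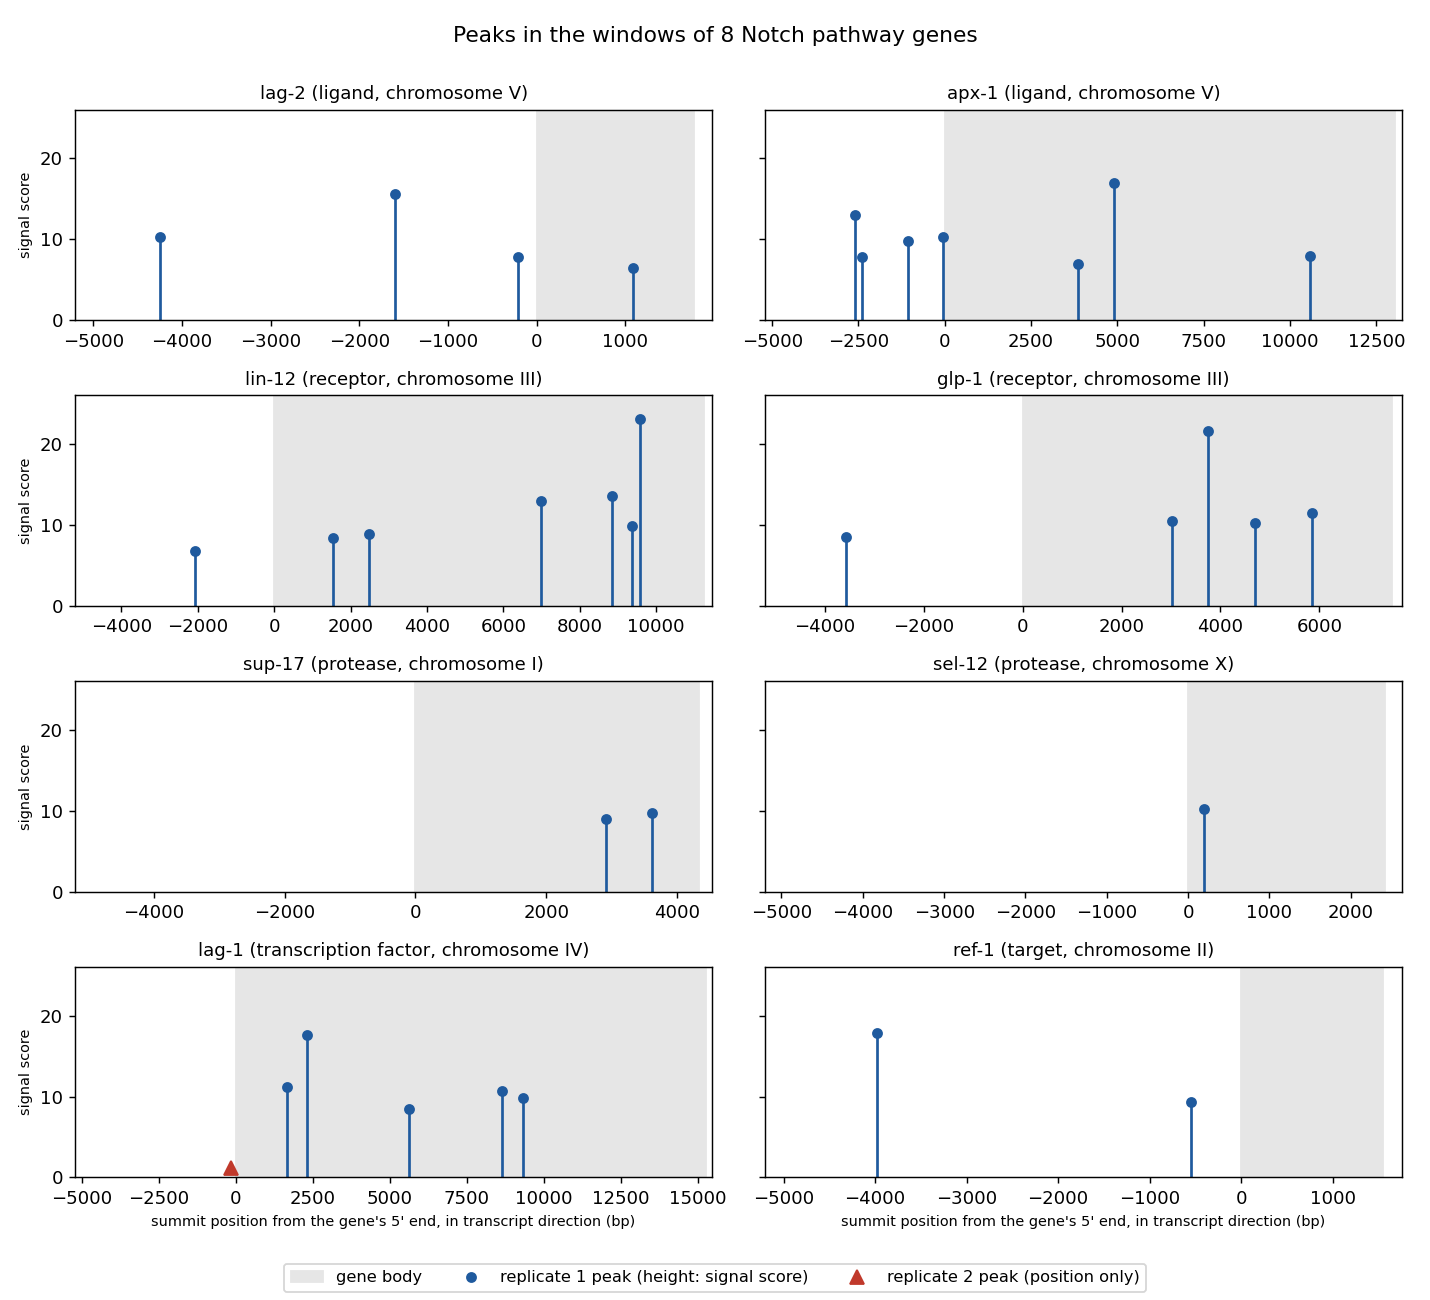
Summits in the windows of the 8 Notch genes, by distance from the 5′ end in transcript direction, with the gene body in grey. Blue stems give the signal score of replicate 1 peaks, and the red triangle the position of the replicate 2 peak. The highest stems, 23.1 and 21.6, stand inside lin-12 and glp-1, and the triangle stands 150 bp upstream of lag-1.

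The ligand genes had moderate replicate 1 peaks. LAG-2 and APX-1 are transmembrane ligands of the DSL family, and their genes lie 20080 bp apart on chromosome V. lag-2 (WBGene00002246, V 3188343 to 3190115) had 4 replicate 1 peaks where the density gives 1.96. The strongest of them, with its summit 1592 bp upstream at V 3186751, had a signal score of 15.6, a -log10 q-value of 1.29 and rank 1635. The others had their summits 4242 and 210 bp upstream and 1088 bp into the gene, in a coding exon, at ranks 9757, 20152 and 29151. The summit 4242 bp upstream lay 18 bp from the 5′ end of linc-160, a long noncoding RNA gene. apx-1 (WBGene00000168, V 3210196 to 3223221) had 7 peaks against 5.22. Its strongest lay in an intron, 4909 bp from the 5′ end, with a score of 16.9 and rank 1033. Another, 45 bp upstream of the 5′ end, had a score of 10.2 and rank 9961. The other 5 ranked between 3923 and 26008. Of these, the peaks at ranks 3923 and 20174 overlapped each other, so the pair is not independent. The nearest replicate 2 peak to these windows, with its summit at V 3263029 and rank 959, lay 39808 bp beyond that of apx-1 and 72914 bp beyond that of lag-2.

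The receptor genes carried the strongest peaks. lin-12 and glp-1 encode both Notch receptors of the worm and are neighbours on chromosome III, with 20768 bp between them and 10768 bp between their windows. lin-12 (WBGene00003001, III 9060221 to 9071472, minus strand) had 7 replicate 1 peaks against 4.90 by density. The strongest, at III 9061744 to 9062063, had a score of 23.1, a -log10 q-value of 1.73 and rank 136. Its summit lay in coding exon 8 of 10 of the longest transcript, at codon 1162 of 1429, in the stretch shown above that encodes ankyrin repeats of the intracellular part. Peaks at ranks 3296, 4114 and 10945 also lay in coding exons, those at 14641 and 17109 in introns, and the one at 26979 lay 2065 bp upstream. The summit of the strongest peak was nearer to the 5′ end of gst-1, at 2573 bp, than to that of lin-12, at 9568 bp. The peak at rank 10945, with its summit 200 bp from the strongest, overlapped it, so the pair is not independent.

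glp-1 (WBGene00001609, III 9092241 to 9099698) had 5 replicate 1 peaks against 3.76. The strongest, at III 9095820 to 9096139, had a score of 21.6, a -log10 q-value of 1.68 and rank 217. It lay in coding exon 5 of 9, at codon 450 of 1295, in the stretch shown above that encodes EGF-like repeats of the extracellular part. The strongest peaks of the 2 receptor genes thus did not lie at matching places of the coding sequence, since they stood 34.7% of the way along it in glp-1 and 81.3% in lin-12. Of the other glp-1 peaks, those at ranks 6626, 9113 and 9708 lay in coding exons and the one at 16658 lay 3567 bp upstream, inside mrpl-44 and mccc-2. In both receptor genes the strong peaks thus lay in the gene body, away from the 5′ end. The nearest replicate 2 peak had its summit at III 9084280 between the 2 windows, 7808 bp from that of lin-12 and 2961 bp from that of glp-1, at rank 444, and far-2 had the protein-coding 5′ end closest to it.

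The protease genes had few and weak peaks. SUP-17 is an ADAM metalloprotease that cuts ligand-bound receptor, and SEL-12 is a presenilin, the catalytic subunit of gamma-secretase. sup-17 (WBGene00006324, I 8792964 to 8797295) had 2 replicate 1 peaks against 2.82 by density. They lay in a coding exon and an intron, with scores of 9.72 and 8.996 at ranks 11525 and 14369, and the 5′ end of F36A2.3 was nearer to both than that of sup-17. sel-12 (WBGene00004769, X 915867 to 918290) had 1 peak against 2.43, the lowest ratio to density of the 8 genes at 0.412 (exact Poisson 95% interval 0.0104 to 2.29). Its summit lay 194 bp into the gene in a coding exon, with a score of 10.3 and rank 9800. Of all protein-coding genes 52.7% had a replicate 1 peak of this rank or stronger in the window, and 58.2% one at least as strong as that of sup-17.

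lag-1 was the one gene with a peak in each replicate list. LAG-1 is the DNA-binding protein through which both receptors act on their targets. The gene (WBGene00002245, IV 6095407 to 6110655) had 5 replicate 1 peaks against 5.23 by density. The strongest lay in an intron at IV 6097560 to 6097879, 2313 bp from the 5′ end, with a score of 17.6, a -log10 q-value of 1.51 and rank 817. Peaks at ranks 7246 and 16845 also lay in introns, that at 8620 in an annotated 5′ untranslated exon of a transcript and that at 11226 in a coding exon. The strongest summit was nearer to the 5′ end of the noncoding RNA gene K08B4.41, at 709 bp. The summit at rank 11226 lay 65 bp from that of K08B4.42, also a noncoding RNA gene. The replicate 2 peak, at IV 6095077 to 6095436, had its summit 150 bp upstream of the 5′ end, with a score of 16.7, a -log10 q-value of 0.0593 and rank 941. So low a -log10 q-value means a high q-value, which does not set this peak apart from background. Scores of the 2 lists are not on a common scale, and each stands beside its own list, with a median of 8.84 in replicate 1 and 16.5 in replicate 2. The summits of the strongest peak of each list lay 2463 bp apart.

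The replicate 2 summit of lag-1 lay beside an inverted repeat, whose arms of 23 bp face each other across 2 bp at IV 6095164 to 6095186 and 6095189 to 6095211. It ended 46 bp before the summit. The exact arm sequence occurs at 2 places in the genome, which are the arms themselves. Copies that differ in some bases were not searched for. Inverted repeats with exact arms of 15 bp or more lay within 100 bp of the summit in 16 of 2007 nuclear replicate 2 peaks (0.797%), in 98 of 30000 replicate 1 peaks (0.327%) and in 0 of the 33 at Notch genes. This feature was looked for after the sequence had been seen. GC content was 32.8% in this window, against a median of 33.8% over replicate 2 and 40.8% over replicate 1.

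ref-1, a bHLH gene that Notch signalling activates in the embryo, had its strong peak far upstream. The gene (WBGene00004334, II 10218471 to 10220022) had 2 replicate 1 peaks against 2.11 by density. The stronger, at II 10214334 to 10214653, had a score of 17.9, a -log10 q-value of 1.49 and rank 759, with its summit 3977 bp upstream. No other protein-coding gene had a nearer 5′ end, but that of the noncoding RNA gene T01E8.10 was slightly nearer, at 3936 bp. The weaker, 544 bp upstream, had a score of 9.32 and rank 13050. The gene body held none.

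**Figure D3:**
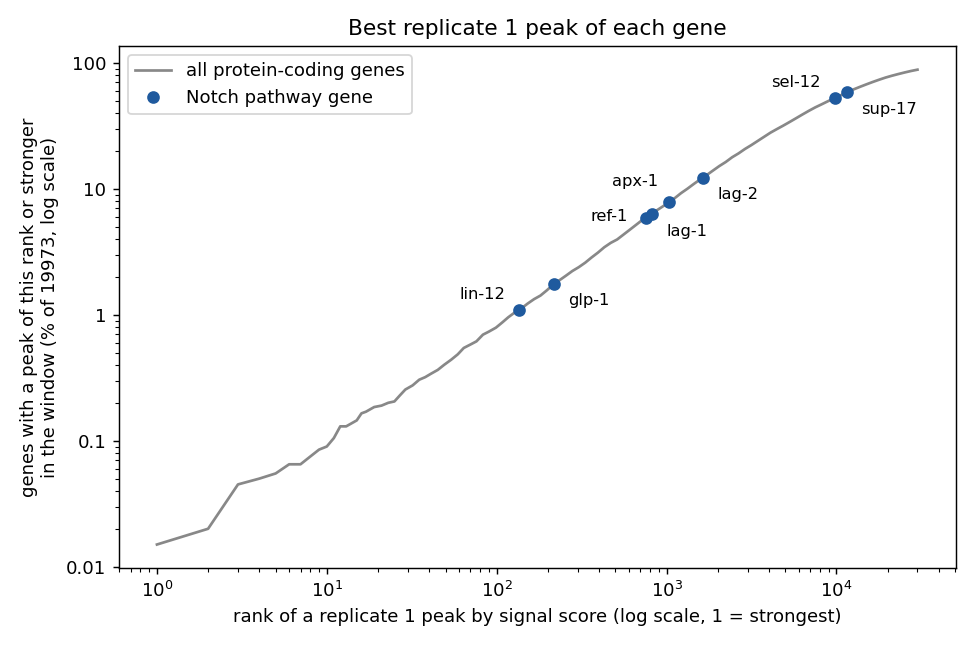
Rank of the strongest replicate 1 peak in the window (x axis, log scale) and the share of the 19973 protein-coding genes with a peak at least as strong in their own window (y axis, log scale). The grey line is all genes, on which the 8 Notch genes are marked. lin-12 and glp-1 stand at 1.09% and 1.77% of genes, ref-1, lag-1, apx-1 and lag-2 between 5.92% and 12.3%, and sel-12 and sup-17 above 50%.

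By their strongest replicate 1 peak the genes thus ran in the order lin-12, glp-1, ref-1, lag-1, apx-1, lag-2, sel-12 and sup-17. A peak at least as strong as that of lin-12 lay in the window of 218 protein-coding genes (1.09%), and one at least as strong as that of glp-1 in that of 353 (1.77%). Ranked by -log10 q-value, the order was lin-12, glp-1, lag-1, ref-1, apx-1, lag-2, sel-12 and sup-17, so lag-1 and ref-1 changed places. No spread over replicates can be given for these ranks, since replicate 2 lists none of the positions. Of the 136 replicate 1 peaks at least as strong as that of lin-12, 39 overlapped a replicate 2 peak (28.7%), and of the 217 at least as strong as that of glp-1, 50 did (23.04%).

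By position, 22 of the 33 replicate 1 summits lay in the gene bodies and 11 upstream, and 3 lay within 500 bp of the 5′ end, at lag-2, apx-1 and sel-12. By the annotation of protein-coding genes, 14 of the 33 (42.4%) lay in coding exons of any gene, against 41.9% of all replicate 1 peaks and 39.4% of its 1000 strongest. Intergenic sequence held 10 (30.3%), against 28.1% of all replicate 1 peaks. The 33 were thus placed among these classes much as the whole list was. Their windows hold only gene bodies and upstream sequence, and the share of each class in the windows was not measured. The likeness therefore does not show how peaks are placed within these genes. GC content in the 201 bp around the summits had a median of 42.8% (range 33.8% to 55.2%), against 40.8% over the list and 44.3% over its 1000 strongest peaks.

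The Myt1-family word AAGTTT lay within 100 bp of 6 of the 33 summits (18.2%), against 23.1% of all replicate 1 peaks. The LAG-1 core words GTGGGAA and ATGGGAA, on either strand, lay at 4 of the 33 (12.1%), against 6.85% of the list. These 4 were the intronic peaks of lag-1 at ranks 817 and 7246 (the other one, at rank 16845, held none), the strong upstream peak of ref-1, with 2 copies, and the peak upstream of lin-12 at rank 26979, also with 2. The strong peaks of lag-1 and ref-1 each held AAGTTT and a LAG-1 word, as printed above. The strongest peaks of lag-2, apx-1, lin-12, glp-1, sup-17 and sel-12 held neither. How often both words occur together over the whole list was not counted, so the pair has no share to stand beside. GCGCAGGG, a core word of dosage compensation recruitment sites on X, lay at 0 of the 33, against 0.113% of the list. In the 300 bp promoters, from 250 bp before to 50 bp after the 5′ end, AAGTTT was present in lag-2 and ref-1, against 41.6% of all protein-coding promoters. The LAG-1 words were in 0 of the 8 promoters against 10.1%, and GCGCAGGG in 0 against 0.105%. A match is a description of the letters and not a binding site.

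A wider list of 50 pathway genes was examined in the same way, of which 49 matched the annotation and lst-3 did not. This list was also chosen with earlier results of these data known. Replicate 1 peaks lay in the windows of 45 of the 49 genes (91.8%), close to the 88.3% of all protein-coding genes. Replicate 2 peaks lay in those of 12 (24.5%), against 14.9% of all protein-coding genes, and pooled peaks in those of 5 (10.2%), against 5.01%. The density ratios over the merged windows were 1.30 in replicate 1 (170 peaks, exact Poisson 95% interval 1.11 to 1.51), 1.56 in replicate 2 (14 peaks, 0.852 to 2.61) and 2.14 in the pooled list (6 peaks, 0.784 to 4.65). Among the 14 replicate 2 peaks there were 7 that shared bases with a replicate 1 peak, against 33.7% of all nuclear replicate 2 peaks. The 2 in the hlh-27 window overlapped each other and the same replicate 1 peak, rank 9, so they are not independent. The best overlapped replicate 1 rank was 29 at dos-3, 2562 at sel-2 and 8736 at lst-4. It was 27585 at vav-1 and 29750 at dos-2, near the end of that list. By role, replicate 2 peaks lay in the windows of 2 of 13 ligand and co-ligand genes, 4 of 14 genes of receptor proteolysis and trafficking, 1 of 5 genes of the nuclear complex and turnover, and 5 of 17 target genes. These shares ran from 15.4% for ligand genes to 29.4% for target genes, beside the same 14.9% over all protein-coding genes, and the exact Poisson 95% interval of the replicate 2 ratio to density included 1 for each of the 4 roles. Only in the windows of hop-1, pen-2, lip-1 and egl-43 was the protein-coding 5′ end nearest to the replicate 2 peak the gene's own. In the other windows another gene was nearer. This was K10G6.9 at 63 bp for dos-2 and K04G11.1 at 445 bp for sel-7. For lst-4 it was ccar-1 at 619 bp, and for vav-1 col-175 at 330 bp. hlh-28 and hlh-29, which agree in 1144 of 1148 bases, and dsl-5 and sel-9 were the 4 genes with no replicate 1 peak.

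**Figure D4:**
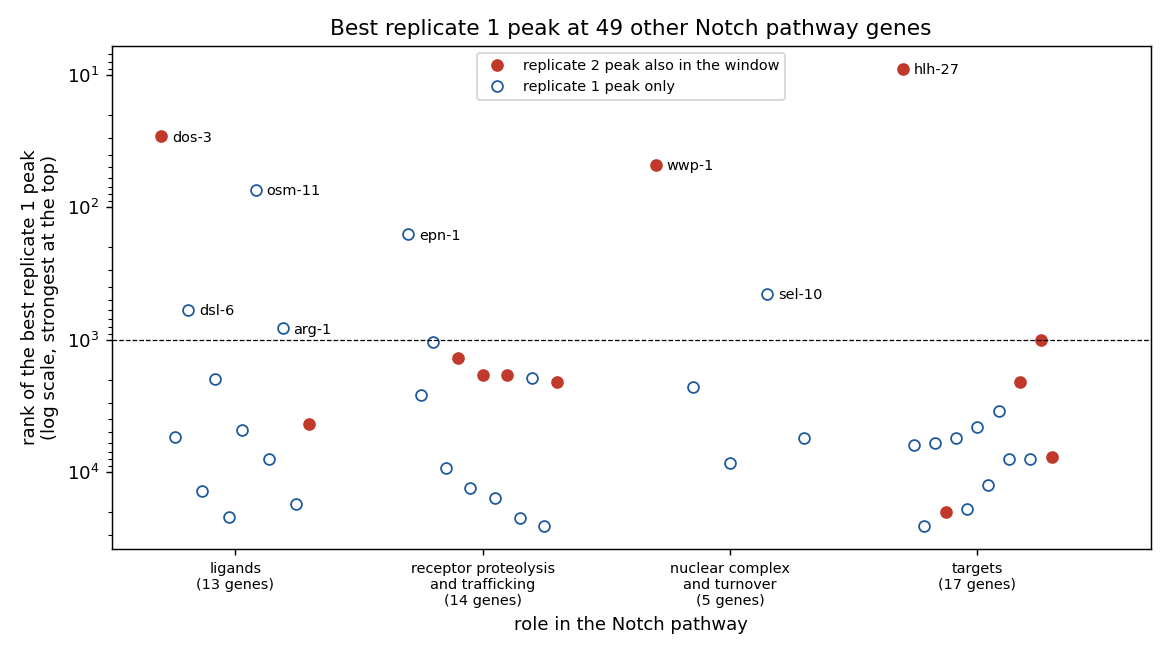
Rank of the strongest replicate 1 peak in the window (log scale, strongest at the top) for 45 of the 49 wider pathway genes, by role. Filled red points also had a replicate 2 peak in the window, and the dashed line marks rank 1000. Of the 8 genes above it, hlh-27, dos-3 and wwp-1 are filled.

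In the windows of the wider list 1 thresholded peak was found. It stood upstream of hlh-27, a bHLH gene of the REF-1 family, but closer to other genes. This peak, at II 5543541 to 5543860, had a score of 67.4 and rank 37, with rank 9 in replicate 1 and rank 56 in replicate 2. The summit lay 3488 bp upstream of hlh-27 and 3 bp from the 5′ end of the noncoding RNA gene C17C3.23. A further replicate 1 peak in that window, rank 478, had its summit 2 bp from sls-2.3, a spliced leader RNA gene, and ins-13 had the nearest protein-coding 5′ end to both. Near dos-3, a gene for a protein with the DOS motif of Notch co-ligands, a coding-exon peak ranked 29 in replicate 1 and overlapped one at rank 534 in replicate 2 and at rank 159 in the pooled list. Its summit was nearer to the 5′ end of zip-2, at 3005 bp. The -log10 q-values at dos-3 were 2.16 in replicate 1, 0.131 in replicate 2 and 0.615 in the pooled list.

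The other genes with pooled peaks were wwp-1, sel-2 and hop-1. At wwp-1, which encodes a HECT-type ubiquitin ligase, a peak 260 bp upstream had a score of 40.9 and pooled rank 100. It was not in the thresholded list, whose lowest score was 41. It ranked 48 in replicate 1, overlapped 0 replicate 2 peaks, and lay 69 bp from the 5′ end of the noncoding RNA gene Y65B4BR.10. A weaker pooled peak in that window, rank 488, was nearest to icd-2 and overlapped 2 replicate 2 peaks. At sel-2, a negative regulator of lin-12 of the BEACH family, an intronic peak was listed in both replicates, at ranks 2562 and 1105, and at rank 334 in the pooled list. The pooled summit was nearer to the 5′ end of mab-21, at 5345 bp, than to that of sel-2, at 6286 bp. At hop-1, the presenilin that acts beside sel-12, the pooled peak at rank 419 lay 2732 bp upstream in C18E3.1 and overlapped 0 replicate 2 peaks, while the replicate 2 peak at rank 944 lay 153 bp upstream and overlapped 0 replicate 1 peaks. The other genes among the 5 with the best replicate 1 ranks were osm-11, a secreted co-ligand gene with a coding-exon peak at rank 74, and epn-1, an epsin gene with a peak 470 bp upstream at rank 160. The summit of the epn-1 peak lay 3 bp from the 5′ end of the noncoding RNA gene T04C10.8, and that of osm-11 lay 422 bp from the 5′ end of the noncoding RNA gene F11C7.9 and 487 bp from its own. Neither gene had a replicate 2 or pooled peak. Among the pooled peaks, the -log10 q-value was 1.07 at wwp-1, rank 100, but 0.03815 at rank 488 there. It was 0.162 at sel-2 and 0.0858 at hop-1. The replicate 2 peaks of sel-2 and hop-1 had 0.0508 and 0.0596. Values this low do not set a peak apart from background.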

How the data were processed

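The deposited data are ENCODE peak lists from 2 biological replicates of 1 group. The authors' text records state that a replicate list came from that replicate's alignments and a control, the pooled list from both, and the thresholded list from the other lists. Each deposited peak has a signal score and a -log10 q-value from the authors' peak caller. No source used here names the caller, aligner, read filters or thresholds. Only the 4 ce11 lists were used, with the WBcel235 sequence and Ensembl 115 genes. No coordinates were converted between builds.

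From these, peaks were counted by summit in gene windows, ranked by signal score and set against the number that the list's density on that chromosome gives, with exact Poisson 95% intervals (scipy 1.17.1, pandas 2.3.3, numpy 2.4.6, Python 3.11.15). No significance test was run, since the design has 1 group. Peaks were called overlapping from 1 bp. The window counting was checked on planted peaks. The 8 genes, the wider list and the windows were chosen with earlier results of these data known. Of the wider list, genes with a pooled or thresholded peak and the 5 with the best replicate 1 ranks were to be named. Alternatives were other windows, overlaps, densities and rankings, and stronger peaks alone.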

Additional observations from a re-analysis of the deposited data

How the results depend on the processing

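Of 58 alternative values, 48 stayed within 1.5 times the value reported, among them values of 0 that could not have differed. The replicate 1 ratio to density, 1.16, lay between 0.920 and 1.34 under the other windows, the nearest-gene rule, peak overlap and genome-wide density. It was 3.14 with the 2036 strongest replicate 1 peaks, and 4.30 with the 1000 strongest, with 4 of 8 genes holding a peak, a setting chosen after seeing the data. With upstream sequence alone, 5 genes had a replicate 1 peak, and the replicate 2 ratio was 1.24. That ratio was 0.861 where the nearest 5′ end had to be the member's. With gene bodies alone, the replicate 2 ratio was 0 and 0 genes had a replicate 2 peak. These replicate 2 values rest on the 1 peak at lag-1. The pooled ratio and gene count were 0 under every window, overlap and density alternative run. Of these, only peak overlap could have given another value. The other windows lie within the main one, and a count of 0 stays 0 at any density. Leaving out a replicate, the genes with a peak in the remaining list numbered 1 without replicate 1 and 8 without replicate 2. With overlapping peaks of both lists required, the number of genes was 0 in place of 1. The order of the strongest peaks by -log10 q-value exchanged lag-1 and ref-1 and no others. No paired analysis was possible because the series has 1 group. The depth of the libraries is unknown, so positions that replicate 2 does not list cannot be told apart from positions below its reach.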

Other observations

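Other genes of the wider list, named after their values were seen, had peaks of high rank in 1 replicate list. sel-10, which encodes an F-box protein that promotes turnover of the receptor's intracellular part, had a replicate 1 peak 42 bp from its 5′ end in a coding exon, with a score of 19.3 and rank 450, and 0 replicate 2 peaks. arg-1, a gene of the DSL family, had an intronic replicate 1 peak at rank 821. dsl-6 had one at rank 595, with its summit 3382 bp upstream. That summit was nearer to the 5′ end of his-47, at 607 bp, and to that of the piRNA gene 21ur-12556, at 265 bp. pen-2, which encodes a gamma-secretase subunit, had the strongest replicate 2 peak of the wider list outside the hlh-27 window, at III 11343590 to 11343949. It had a score of 23.4, a -log10 q-value of 0.608 and rank 112 of 2036. Its summit lay 448 bp from the 5′ end in an intron, held 2 copies of AAGTTT within 100 bp, and overlapped 0 replicate 1 and 0 pooled peaks.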
